A study of Mus musculus with 9 samples.

Results

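Fragments of 20 nuclear tRNA species were followed in mouse atrial appendages: those that carry arginine (5 species, told apart by anticodon), proline and threonine (3 each), glutamine and isoleucine (2 each), and elongator methionine, initiator methionine (iMet), phenylalanine, selenocysteine (SeC) and tryptophan (1 each). The rule that chose them names amino acids and uses no measured value, though earlier results of these data were known when it was set. Each species was divided into a CCA end, a 3′ end, a 5′ end, and the remainder, which holds all reads of the species outside the 3 named ends. The sources used do not define these ends, and the 3′ end is taken here to stop before CCA. The division gave 80 fragments of 994 small RNA features, from 20 of 51 nuclear tRNA species. All 80 had reads, and 77 passed the filter on low counts among 520 features tested: every 5′ end, CCA end and remainder, and 17 of 20 3′ ends. The 3′ ends of tRNA-Pro-CGG, tRNA-Ile-TAT and tRNA-Ile-AAT did not pass.

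All mice were C57BL/6, with 3 libraries in each of 3 groups. The young mice were 5 months old and the old mice 18 months, neither with curcumin. The third group was 18 months old and had been given curcumin, a polyphenol of turmeric, at 100 mg/kg per day in skim milk from 12 to 18 months of age. Only this group is described as having received the milk, so curcumin and milk cannot be told apart. Small RNA of 15 to 45 nucleotides was sequenced by PANDORA-seq, in which the demethylase AlkB removes methyl groups that stop reverse transcription and T4 polynucleotide kinase repairs RNA ends for ligation. The labels give 3 mice per group but do not state that each library came from a separate mouse. The p-values therefore measure the spread between these libraries, which may be partly technical. In whole tissue, fewer cells of a type and less RNA per cell cannot be told apart.

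A tRNA carries an amino acid on its 3′ end and reads a codon with the anticodon in its middle. In mammals the last bases of that 3′ end, CCA, are not encoded in the gene. A nucleotidyltransferase adds them after the precursor has been trimmed, so an added CCA marks a mature tRNA. Cleavage in the anticodon loop gives long fragments known from stress responses, and cleavage in the D or T loop gives shorter fragments. Initiator tRNA-iMet starts protein synthesis, elongator tRNA-Met reads internal methionine codons, and tRNA-SeC inserts selenocysteine at a recoded stop codon. In tRNA-Trp-CCA the letters CCA name the anticodon, not the 3′ end.

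The libraries held 12899427 to 19707803 clean reads, of which 65.0% to 73.7% matched the genome and 83.7% to 87.3% fell in features. No 2 libraries held identical values. All 7 heart muscle miRNA precursors on the marker list were found, at 5179 to 17618 CPM summed (CPM here are edgeR's CPM of feature reads with TMM scaling), beside 0.965 to 4.55 for the liver precursor mir-122. Red blood cell precursors ranged from 7.47 to 244 CPM, highest in young replicate 1, and leukocyte precursors from 49.9 to 349. The 3 listed neuronal precursors were not found by name.

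The 20 species together had few reads. Young libraries held 68642, 63023 and 50373 member reads, old libraries 38538, 83566 and 65418, and curcumin libraries 98074, 82787 and 55531. As shares of clean reads these were 0.348%, 0.403% and 0.391% in the young group, 0.239%, 0.482% and 0.391% in old, and 0.560%, 0.479% and 0.389% with curcumin. Old replicate 1 was the lowest and curcumin replicate 1 the highest, so the libraries numbered 1 stood at both extremes. The group means were 0.380% ± 0.0285, 0.371% ± 0.123 and 0.476% ± 0.0856 (SD, n = 3 for this and all later group values), and the groups overlapped (exact two-sided permutation p = 0.9 for old against young, 0.5 for curcumin against old and 0.3 for curcumin against young). An exact test of 3 libraries against 3 cannot give a p under 0.1. The 95% Wilson interval of such a share was no wider than 0.00350 percentage points on each side and covers counting error only.

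Among nuclear tRNA reads the 20 species took 1.06% to 3.47%. This share moved with library number: 1.72%, 1.06% and 2.24% in young, old and curcumin replicate 1, and 2.68% to 3.47% in replicates 2 and 3. Nuclear tRNA reads, used below as a denominator, numbered 3643643 to 4386191 in replicates 1 and 1881284 to 2622440 in replicates 2 and 3. Glutamine tRNAs led with 25.5% of the member reads, followed by arginine with 19.2%, tryptophan with 16.5%, elongator methionine with 9.28%, isoleucine with 8.15%, threonine with 7.14%, proline with 6.20%, initiator methionine with 5.04%, phenylalanine with 1.54% and selenocysteine with 1.51%. These are shares of reads, not corrected for length. The RefSeq annotation of GRCm38.p6 (mm10) lists 120 genes for 18 of the species, all 72 to 96 bases long, and 46 of them lie on chromosome 13. Its tRNA-Met-CAT genes are not divided into initiator and elongator, and tRNA-SeC was not matched. Isoleucine tRNA-Ile-TAT has a single gene there, n-TItat14 (chromosome 13, 21896938 to 21897031, 94 bases), and arginine tRNA-Arg-CCG has 3, of 73 bases each: n-TRccg1 (chromosome 11, 107012866 to 107012938), n-TRccg3 (chromosome 13, 21215458 to 21215530) and n-TRccg2 (chromosome 17, 23550263 to 23550335). Read number and gene number followed each other only loosely over the 17 species with a gene count of their own (Spearman 0.39, a description over species that share libraries).

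**Figure D1:**
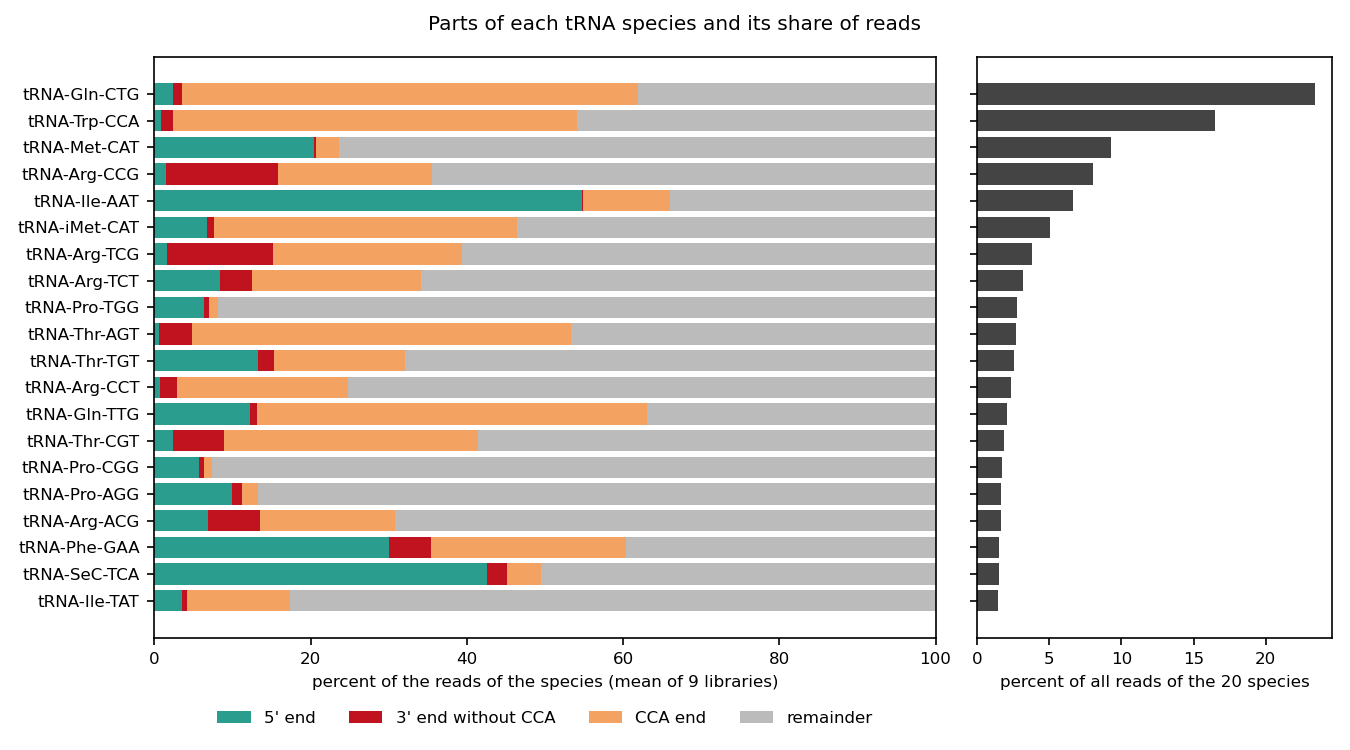
Parts of each of the 20 tRNA species. Left bars divide the reads of a species into its 4 parts, as the mean percent over 9 libraries; right bars give the percent of all member reads held by each species. The remainder is the widest part in 15 species, the CCA end in 4 and the 5′ end in tRNA-Ile-AAT.

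The species differed in which part of the tRNA was sequenced. Over all member reads 54.3% were remainders, 33.0% CCA ends, 9.32% 5′ ends and 3.36% 3′ ends without CCA. In 15 of 20 species the remainder was the largest part, up to 92.6% in tRNA-Pro-CGG and 91.8% in tRNA-Pro-TGG, as means over 9 libraries. CCA ends led in 4 species: 58.4% in tRNA-Gln-CTG, 51.7% in tRNA-Trp-CCA, 49.8% in tRNA-Gln-TTG and 48.5% in tRNA-Thr-AGT. The 5′ end led in 1 species, tRNA-Ile-AAT, at 54.7% with a range of 45.9% to 64.9% over the libraries. It was also large in tRNA-SeC-TCA at 42.6%, tRNA-Phe-GAA at 30.1% and tRNA-Met-CAT at 20.4%. The 2 isoleucine species were not alike: the 5′ end made up 3.53% of tRNA-Ile-TAT and 54.7% of tRNA-Ile-AAT, with ranges of 0.814% to 6.01% and 45.9% to 64.9% that did not overlap. The 3′ end without CCA was largest in tRNA-Arg-CCG at 14.4% and tRNA-Arg-TCG at 13.5%.

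Each kind of end was carried by a few species. Of all member 5′ end reads, 39.1% came from tRNA-Ile-AAT and 20.4% from tRNA-Met-CAT. Of the 3′ ends, 39.7% came from tRNA-Arg-CCG and 16.7% from tRNA-Arg-TCG. Of the CCA ends, 41.5% came from tRNA-Gln-CTG and 25.6% from tRNA-Trp-CCA. The remainders were spread more widely, with 16.4% from tRNA-Gln-CTG, 14.1% from tRNA-Trp-CCA and 13.1% from tRNA-Met-CAT.

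Set against the 31 other nuclear tRNA species, the members, with their reads pooled, had more CCA ends and 3′ ends and fewer remainders. CCA ends made up 33.2% ± 6.79 of member reads and 1.05% ± 0.544 of the others (SD over 9 libraries, here and in the next sentences). The 3′ ends were 3.16% ± 2.04 against 0.0668% ± 0.0314, the 5′ ends 9.36% ± 1.74 against 5.52% ± 0.687, and the remainders 54.3% ± 5.66 against 93.4% ± 1.05. Each of these 4 differences had the same sign in 9 of 9 libraries (exact two-sided sign-flip test, p = 0.00391, the smallest it can give over 9 libraries; adjusted p = 0.00391 over the 4 parts). Among the other species tRNA-Gly is the most abundant, and the comparison was repeated without it. The others then had 9.31% ± 3.27 CCA ends and 0.650% ± 0.362 3′ ends, still below the members in 9 of 9 libraries (adjusted p = 0.00521, sign-flip test). The other 2 parts turned direction: the 5′ ends of the others then stood at 37.0% ± 3.09, above the members in 9 of 9 libraries (adjusted p = 0.00521, sign-flip test), and the remainders at 53.1% ± 4.94, below the members in 6 of 9 (adjusted p = 0.113, sign-flip test). Without tRNA-Gly, the CCA end difference did not hold for every member species. Mean CCA shares were 1.08% in tRNA-Pro-CGG, 1.15% in tRNA-Pro-TGG, 2.08% in tRNA-Pro-AGG, 2.86% in tRNA-Met-CAT and 4.39% in tRNA-SeC-TCA. The rest ran from 11.2% in tRNA-Ile-AAT to 58.4% in tRNA-Gln-CTG, above the 9.31% of the others.

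Reads of the CCA ends often did not match the genome. The unmatched share was 57.2% ± 7.71 of member CCA end reads, 22.7% ± 4.40 of the remainders, 0.0312% of the 3′ ends and 0.00211% of the 5′ ends (means over 9 libraries). Among the other nuclear species it was 68.9% ± 6.03 for CCA ends and 0.360% ± 0.146 for remainders. The members ranged from one limit to the other. All CCA end reads of tRNA-Trp-CCA and tRNA-SeC-TCA were unmatched in every library, and none of the 2340 CCA end reads of tRNA-Phe-GAA was. For CCA end reads that matched the genome, the label alone does not show an added CCA. Why they matched was not tested. The CCA ends of tRNA-Gln-CTG, the most abundant fragment, were 23.3% ± 7.80 unmatched, and those of tRNA-Gln-TTG 2.78% ± 1.11. The highest unmatched shares among remainders were in tRNA-Trp-CCA at 67.2% ± 8.55 and in 3 arginine species, tRNA-Arg-TCG at 66.8% ± 6.38, tRNA-Arg-ACG at 45.9% ± 6.71 and tRNA-Arg-TCT at 42.6% ± 6.53. Initiator tRNA-iMet-CAT had 36.7% ± 7.06 unmatched remainders and elongator tRNA-Met-CAT 0.822% ± 0.513. Of these species, those outside the naming rule were singled out after their values were seen.

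**Figure D2:**
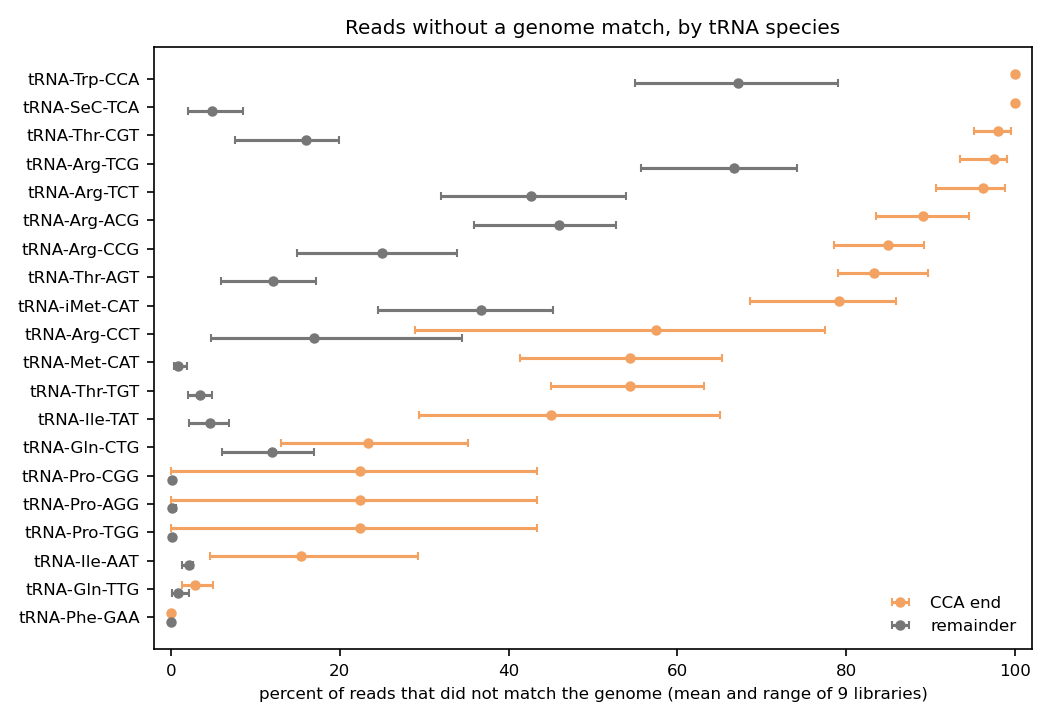
Percent of reads without a genome match for the CCA end (orange) and remainder (grey) of each species; points are means and bars the range of 9 libraries. CCA ends run from 0% in tRNA-Phe-GAA to 100% in tRNA-Trp-CCA and tRNA-SeC-TCA, and remainders reach 67.2% in tRNA-Trp-CCA.

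The libraries numbered 1 stood apart from numbers 2 and 3 in every group, and member ends moved with that number. CCA ends made up 23.1% to 26.7% of member reads in the 3 libraries numbered 1 and 34.0% to 40.7% in the other 6. The 3′ ends without CCA made up 4.08% to 7.77% against 1.29% to 2.83%, and the remainders 59.5% to 62.7% against 48.5% to 56.1%, again without overlap, while the 5′ ends overlapped (7.66% to 10.1% against 7.11% to 12.9%). This split was chosen after the data were seen, so the values that follow describe it and are no test of it.

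Log2 differences of number 1 from the others came from an edgeR fit with a term for these libraries. They were below zero for 19 of 20 CCA ends, with a median of −1.16, beside 29 of 29 in the other nuclear species with a median of −1.35. They were above zero for 15 of 17 tested 3′ ends (median 0.95), 5 of 20 5′ ends (−0.54) and 7 of 20 remainders (−0.18). Among the CCA ends, arginine tRNA-Arg-ACG stood at −2.27 and tRNA-Arg-CCG at −1.47, the initiator tRNA-iMet-CAT at −1.32, tRNA-Thr-AGT at −1.20 and tRNA-Trp-CCA at −1.12. Those of the 3 proline species stood at −2.68 to −2.82, though they share reads. The 3′ ends of tRNA-Thr-TGT (2.70), tRNA-SeC-TCA (2.52) and tRNA-Thr-CGT (1.97) were above zero. Among the 5′ ends tRNA-Arg-CCG (1.13) and tRNA-Gln-CTG (0.98) were above zero and tRNA-Arg-TCG (−1.54) and tRNA-Ile-AAT (−0.83) below. Each group holds 1 library of number 1. The comparisons below hold these libraries unless stated otherwise.

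In the comparison of old with young mice, which asks what differs with age, no member passed the test. Of 77 fragments 0 were called (edgeR, adjusted p under 0.05), as were 0 of all 520 features (0%), and 0 members had an unadjusted p under 0.05 (5 of 520 features). DESeq2 and limma-voom also called 0 members, with 0 members under 0.05 unadjusted in either. Fitted values were above zero for 43 of 77 members, with a median log2 change of 0.06 beside −0.04 over all features. Only 1 of 77 fragments had groups that did not overlap (1.30%, beside 4.62% of all features).

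That fragment was the 5′ end of tRNA-SeC-TCA, the selenocysteine tRNA. It stood at 27.8, 27.9 and 29.6 CPM in young, 25.4, 25.1 and 26.3 in old, and 39.5, 37.2 and 26.6 with curcumin. Old libraries lay just below all young ones, and below all curcumin ones, where replicate 3 was close to the old. The log2 change from young to old was −0.15 (SE 0.31; edgeR, adjusted p = 0.999). The smallest p among the members belonged to the 5′ end of tRNA-Arg-CCT, at 0.87 (SE 0.74; edgeR, adjusted p = 0.999), and then to 2 threonine and 1 arginine species. The 5′ end of tRNA-Thr-CGT had a log2 change of 0.52, the remainders of tRNA-Thr-AGT and tRNA-Thr-CGT −0.46 and −0.39, and the 5′ end of tRNA-Arg-ACG −0.69, all at an edgeR adjusted p of 0.999. Single libraries moved these values: tRNA-Arg-CCT stood at 0.49 without old replicate 1 and at 2.35 without young replicate 1, tRNA-Thr-CGT 5′ at 0.23 without young replicate 1, and the 2 remainders at −0.24 and −0.25 without old replicate 1. The value for tRNA-Arg-ACG rests on young replicate 2: its libraries held 1.59, 15.7 and 6.18 CPM in young and 3.42, 4.83 and 6.25 in old, and without young replicate 2 the log2 change was 0.36.

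The comparison of curcumin-treated with untreated old mice asks what differs with the treatment at the same age. Of 77 fragments 0 were called, as were 0 of 520 features (0%; edgeR, adjusted p under 0.05), with 0 members and 21 features under an unadjusted p of 0.05. DESeq2 and limma-voom also called 0 members, with 0 members under 0.05 unadjusted in either. Fitted values were above zero for 38 of 77 members, with a median of −0.00 beside 0.08 over all features. These values depend on scaling: relative to clean-read totals, which move the median of all features to 0.31, 59 of 77 members were above zero with a median of 0.27. Groups did not overlap for 5 of 77 fragments (6.49%, beside 12.9% of all features), and all 5 were 5′ ends, 4 higher and 1 lower in curcumin-treated mice. By part, 13 of 20 5′ ends (median 0.41), 13 of 17 tested 3′ ends (0.48), 3 of 20 CCA ends (−0.36) and 9 of 20 remainders (−0.03) were above zero. In the other nuclear species 16 of 28, 18 of 21, 6 of 29 and 13 of 30 were, with medians of 0.05, 0.56, −0.40 and −0.03. Without the 3 libraries numbered 1, values above zero were left for 13 of 20 5′ ends (median 0.16), 1 of 17 3′ ends (−0.85), 2 of 20 CCA ends (−0.59) and 1 of 20 remainders (−0.46), so the 3′ ends turned direction. In the other nuclear species 12 of 28, 2 of 21, 6 of 29 and 7 of 30 were left, with medians of −0.12, −0.79, −0.67 and −0.32. The 3′ ends thus turned there too. With a term for those libraries in place of leaving them out, the medians of the member 5′ ends, 3′ ends and CCA ends were 0.42, 0.04 and −0.19.

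The 5′ end of elongator tRNA-Met-CAT had the highest CPM of the 5. It stood at 44.0, 111 and 73.2 CPM in young, 27.9, 78.8 and 89.1 in old, and 109, 164 and 103 with curcumin. Every curcumin library lay above every old one, and the number 1 library was the lowest in young and in old mice. The log2 change from old to curcumin was 0.94 (SE 0.50; edgeR, unadjusted p = 0.0897, adjusted p = 0.917), and that against young mice, which shares the curcumin libraries, was 0.72 (SE 0.50; adjusted p = 0.942). The change from old ranged from 0.66 without old replicate 1 to 1.26 without old replicate 3. The 5′ end of tRNA-Trp-CCA had 2.22, 6.36 and 5.88 CPM in young, 5.77, 4.68 and 6.18 in old, and 9.28, 8.41 and 6.74 with curcumin. All 3 curcumin libraries lay above the other 6. Its log2 changes were 0.55 (SE 0.45) against old and 0.76 (SE 0.45) against young mice, with edgeR adjusted p of 0.917 and 0.942. The difference from young was 0.35 without young replicate 1 and 1.11 without young replicate 2. Selenocysteine tRNA-SeC-TCA, whose 5′ end is given above, had a log2 change of 0.43 (SE 0.31; edgeR, adjusted p = 0.917) between old and curcumin-treated mice.

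The remaining 2 of the 5 rest on few reads. Arginine tRNA-Arg-CCT had 12, 1 and 1 reads of its 5′ end in young, 11, 5 and 6 in old, and 30, 14 and 14 with curcumin. The highest count of each group was in its number 1 library, and curcumin replicates 2 and 3 exceeded all but their own number 1 library. In CPM the curcumin libraries (1.77, 0.785 and 1.14) lay above the old (0.783, 0.396 and 0.431), though replicate 2 did so by only 0.785 against 0.783. The log2 change was 1.18 (SE 0.68; edgeR, adjusted p = 0.917). Threonine tRNA-Thr-CGT gave the 1 fragment that was lower, its 5′ end, at 2.01, 1.63 and 0.893 CPM in curcumin-treated, 2.28, 3.41 and 2.37 in old, and 1.21, 2.30 and 2.13 in young libraries, with a log2 change of −0.82 (SE 0.47; edgeR, adjusted p = 0.917).

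Between curcumin-treated old mice and young mice, which differ in both age and treatment, 0 of 77 fragments were called, as were 0 of 520 features (0%; edgeR, adjusted p under 0.05). An unadjusted p under 0.05 was reached by 1 member and 19 features in edgeR, by 2 members in DESeq2 and by 1 in limma-voom. Neither of these tools called a member; DESeq2 called 1 of 520 features (0.192%), which was lower. Fitted values were above zero for 40 of 77 members, with a median of 0.01 beside −0.01 over all features, and for 53 of 77 relative to clean-read totals. Groups did not overlap for 4 of 77 fragments (5.19%, beside 10.4% of all features), all higher in curcumin-treated mice. The 5′ end of tRNA-Arg-CCT had a log2 change of 2.05 (SE 0.71; edgeR, unadjusted p = 0.0167, adjusted p = 0.942), on the reads given above. Tryptophan tRNA-Trp-CCA gave the second, its 5′ end, and the other 2 came from the initiator tRNA. With overlapping groups, the 5′ end of tRNA-Thr-TGT had a log2 change of 0.56 (edgeR, adjusted p = 0.942), which was 0.22 without curcumin replicate 2. The value for tRNA-Arg-CCT was 3.49 without young replicate 1.

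**Figure D3:**
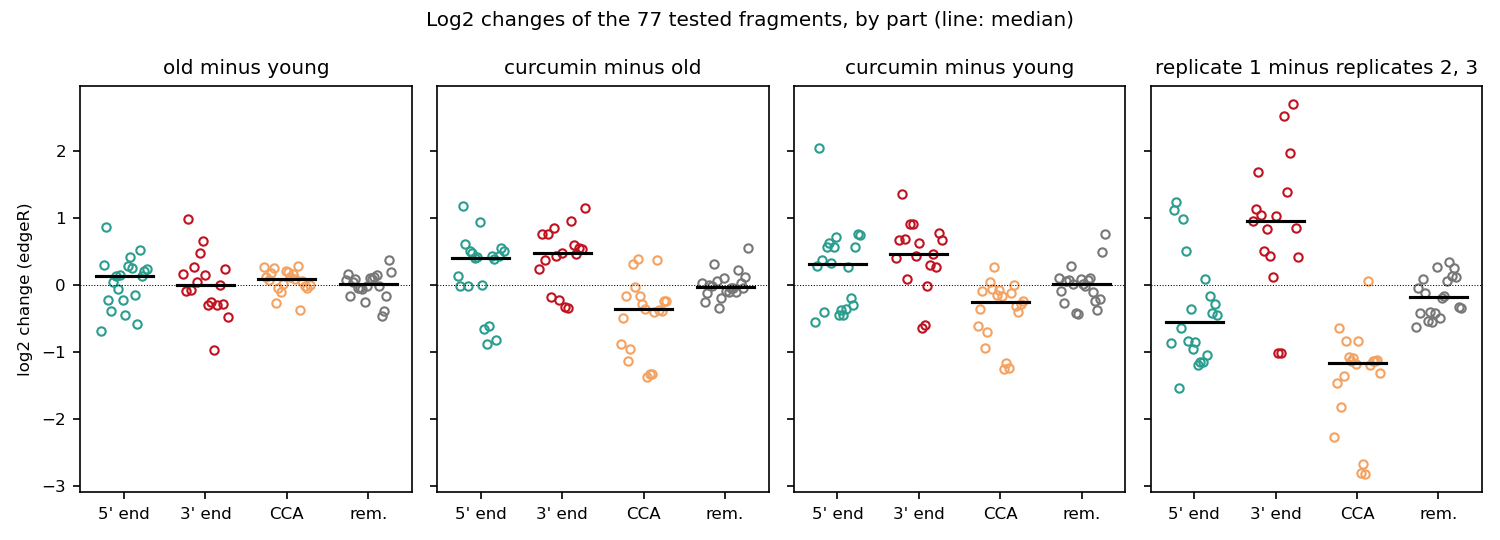
Fitted log2 changes of the 77 tested fragments by part (edgeR) for the 3 group comparisons and, at right, for the libraries numbered 1 against numbers 2 and 3; each circle is a fragment and lines are medians. In the right panel, a description of a split seen in these data, 19 of 20 CCA ends lie below zero.

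Of the 4 parts of initiator tRNA-iMet-CAT 3 had fitted values above zero in both comparisons with curcumin-treated mice, and 0 passed the test. Its remainder stood at 98.2, 94.9 and 108 CPM in young, 71.8, 187 and 88.6 in old, and 163, 164 and 185 with curcumin. The curcumin libraries lay close together and above all young ones, while old replicate 2 was above all of them. The log2 change was 0.76 (SE 0.37; edgeR, unadjusted p = 0.0648, adjusted p = 0.942) against young and 0.56 (SE 0.36; adjusted p = 0.917) against old mice, the latter 1.08 without old replicate 2. The 5′ end had 8.01, 15.3 and 14.4 CPM in young, 11.0, 21.1 and 12.4 in old, and 22.0, 19.8 and 21.6 with curcumin, again above all young libraries, with a log2 change of 0.75 (SE 0.40; edgeR, adjusted p = 0.942), or 0.46 without young replicate 1. The 3′ end of the initiator, at 0.854 to 4.49 CPM, had the smallest p of all members between old and curcumin-treated mice, with a log2 change of 1.15 (SE 0.61; edgeR, unadjusted p = 0.0886, adjusted p = 0.917) and overlapping groups, or 0.71 without curcumin replicate 1. The CCA end was below zero in both, at 47.8, 125 and 129 CPM in young, 36.5, 155 and 109.7 in old, and 58.7, 92.0 and 105 with curcumin, lowest in number 1 of each group. Summed over its 4 parts, tRNA-iMet made up 0.0164%, 0.0164% and 0.0193% of clean reads in the young group, 0.0105%, 0.0265% and 0.0176% in old, and 0.0240%, 0.0285% and 0.0272% with curcumin. Curcumin and young libraries did not overlap (log2 difference 0.61 ± 0.133, pooled SD; exact permutation p = 0.1, adjusted p = 0.818 over 30 comparisons of amino acids), but they overlapped with TMM denominators (0.40, exact permutation p = 0.2) and among nuclear tRNA reads (0.43, p = 0.3). Elongator tRNA-Met-CAT remainders, in contrast, overlapped in all groups, at 351, 327 and 288 CPM in young, 247, 370.3 and 339 in old, and 511, 270.4 and 243 with curcumin.

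Glutamine tRNA-Gln-CTG gave the most abundant member fragment, its CCA end, at 469, 837 and 760.4 CPM in young, 210.3, 813 and 692 in old, and 690.1, 809.8 and 637 with curcumin. Young and old number 1 libraries were far below their groups, and the groups overlapped (log2 change −0.27, SE 0.44, from young to old and 0.32, SE 0.44, from old to curcumin; edgeR, adjusted p = 0.999 and 0.942). Its remainder had 267, 498 and 431 CPM in young, 195, 619.5 and 349 in old, and 562, 507 and 385 with curcumin. Its 5′ end ran the other way with library number, at 29.3, 14.7 and 13.3 CPM in young, 28.5, 14.3 and 16.7 in old, and 42.8, 29.5 and 12.7 with curcumin. Of 8 glutamine fragments 7 had fitted values above zero in curcumin-treated against old mice, with a median of 0.38, and 0 passed the test. In the same fit without the libraries numbered 1 it was 2 of 8, with a median of −0.24 beside −0.54 over all members. Glutamine tRNAs summed to 0.0975% ± 0.00788 of clean reads in the young group, 0.0855% ± 0.0383 in old and 0.129% ± 0.0274 with curcumin (log2 difference 0.70 for curcumin against old, exact permutation p = 0.2, adjusted p = 0.818). That difference was 0.26 without old replicate 1 and at most 0.98 with any other library left out. Without the libraries numbered 1 it was 0.19, still above zero by clean reads.

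Tryptophan tRNA-Trp-CCA was the second most abundant species. Its CCA end stood at 161, 689 and 522 CPM in young, 212, 623 and 502 in old, and 341, 363 and 429.6 with curcumin, and its remainder at 247, 328 and 308, at 207, 628 and 313, and at 499, 297 and 452. The number 1 library was the lowest for the CCA end in all groups, and for the remainder in young and old mice only. In no comparison did the groups separate for either fragment. Its 3′ end, at 11.1, 7.28 and 9.53 CPM in young and 9.11, 15.2 and 8.62 in old mice, reached 33.4 in curcumin replicate 1 against 4.82 and 9.74 in the other curcumin libraries.

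Arginine tRNAs showed the same single library. The 3′ end of tRNA-Arg-CCG stood at 55.9, 55.2 and 42.1 CPM in young, 40.6, 79.9 and 23.1 in old, and 194, 20.0 and 29.4 with curcumin. Curcumin replicate 1 was the highest of all 9 and replicate 2 the lowest, and the log2 change against old mice was 0.76 (SE 0.80; edgeR, adjusted p = 0.917). Its CCA end was lowest in the number 1 libraries, at 28.7, 117 and 89.5 CPM in young, 36.6, 115 and 104 in old, and 36.3, 75.9 and 70.4 with curcumin. Its remainder, at 186 to 282 CPM in young, 212 to 375 in old and 182 to 303 with curcumin, overlapped between the groups. Of 20 arginine fragments 14 had fitted values above zero from young to old and 9 from old to curcumin, with 0 called in either. Without the libraries numbered 1, 3 of 20 were above zero from old to curcumin, with a median of −0.64. There 4 were called lower (edgeR, adjusted p under 0.05), beside 7.51% of all features, on a split chosen after the data were seen.

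The isoleucine tRNA-Ile-AAT 5′ end, the largest 5′ end among the members, had 82.9, 226 and 187 CPM in young, 103, 206 and 164 in old, and 173, 228 and 223 with curcumin. The number 1 library was the lowest in each group and the groups overlapped, with log2 changes of −0.07 (SE 0.40) from young to old and 0.40 (SE 0.40) from old to curcumin (edgeR, adjusted p = 0.999 and 0.917). Its remainder had 72.3, 159.9 and 139 CPM in young, 46.0, 199.8 and 109 in old, and 129, 73.9 and 76.0 with curcumin, where replicates 2 and 3 were below their counterparts in both other groups and replicate 1 above. Its 3′ end was at most 0.886 CPM, with 0 reads in old replicate 3, where a count of 0 allows up to 3 reads.

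Of 12 threonine fragments 9 had fitted values below zero from young to old, with a median of −0.23 and 0 called. Without the libraries numbered 1, 6 were below zero and 6 above, with a median of −0.016. The tRNA-Thr-AGT CCA end had 37.3, 109 and 58.0 CPM in young, 20.1, 72.1 and 66.1 in old, and 47.6, 89.5 and 67.9 with curcumin, and its remainder 66.1, 83.6 and 57.1, then 30.8, 72.4 and 47.1, then 93.0, 42.8 and 39.2. All these groups overlapped. The threonine sum was 0.0302% ± 0.00352 of clean reads in the young group and 0.0248% ± 0.00741 in old mice (log2 difference −0.32, exact permutation p = 0.3, adjusted p = 0.818). It was −0.059 without old replicate 1 and −0.51 without old replicate 2.

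Proline tRNAs were mostly remainders, and their ends share reads. Reads of the tRNA-Pro-CGG CCA and 3′ ends stood at 0.50 of those of tRNA-Pro-AGG in every library, and those of the tRNA-Pro-TGG CCA end at 0.827 to 0.834, so these are not independent measurements. Over all members 46.7% of 720 values were not whole numbers (tolerance 0.005): reads shared by near-identical species had been divided, and values of such isoacceptors are uncertain. The tRNA-Pro-TGG remainder had 97.6, 125 and 122 CPM in young, 131, 146 and 105 in old, and 150.3, 109 and 111 with curcumin, and the groups overlapped. Its CCA end was lowest in number 1 of each group, at 0.0965, 2.58 and 3.24 CPM in young, 0.0712, 4.12 and 2.01 in old, and 0.650, 0.897 and 0.893 with curcumin. All 11 tested proline fragments had fitted values below zero from old to curcumin (median −0.62, 0 called), but the sum over the proline species had a log2 difference of 0.13 by clean reads and −0.11 with TMM denominators, so its direction depends on the scaling.

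Phenylalanine tRNA-Phe-GAA and tRNA-SeC-TCA were rare and rich in 5′ ends. The tRNA-Phe-GAA 5′ end had 13.1, 44.0 and 27.3 CPM in young, 11.0, 24.7 and 26.3 in old, and 20.6, 23.2 and 18.2 with curcumin. Its CCA end had 9.89, 26.1 and 20.3, then 11.0, 25.4 and 27.8, then 16.1, 17.7 and 16.5 CPM, all overlapping, and the number 1 library was the lowest in every group. The 3′ end of tRNA-SeC-TCA followed library number instead, at 5.50, 0.553 and 0.710 CPM in young, 2.35, 0.475 and 0.718 in old, and 5.02, 0.561 and 1.30 with curcumin. Its remainder had 38.0, 34.8 and 35.9 CPM in young, 34.0, 41.5 and 32.7 in old, and 50.6, 25.3 and 25.3 with curcumin.

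Summed over the 20 species as percent of clean reads, the curcumin mean was the highest in all 4 parts, and the 5′ ends were the part whose curcumin libraries did not overlap the others. They made up 0.0267%, 0.0384% and 0.0331% of clean reads in the young group, 0.0241%, 0.0342% and 0.0355% in old, and 0.0487%, 0.0619% and 0.0415% with curcumin. Every curcumin library lay above the other 6, and young and old overlapped. The log2 difference of curcumin from old was 0.70 ± 0.30 (pooled SD) and that from young 0.63 ± 0.28, each with an exact permutation p = 0.1, the smallest that 3 against 3 allows, and an adjusted p = 0.6 over 12 comparisons of parts. The 2 comparisons share the curcumin libraries. Between libraries of the same number the difference from old was 1.01, 0.85 and 0.23, and without the libraries numbered 1 it was 0.54. The separation depended on the denominator. With TMM denominators the difference from old was 0.46 (exact permutation p = 0.1) and that from young 0.42 (p = 0.3, groups overlapping), and among nuclear tRNA reads they were 0.51 and 0.44 (exact permutation p = 0.5 for each, groups overlapping). Without tRNA-Ile-AAT and tRNA-Met-CAT, left out after their values were seen, the differences were 0.44 and 0.40, and curcumin replicate 3, at 0.0135%, lay within the young and old range. Fitted relative to clean-read totals, most 5′ ends of the other nuclear species were above zero too. From old to curcumin these were 23 of 28 (median 0.31), beside 16 of 20 members (0.67). From young to curcumin they were 24 of 28 (0.44), beside 13 of 20 members (0.55). The medians of all features were 0.31 and 0.19.

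**Figure D4:**
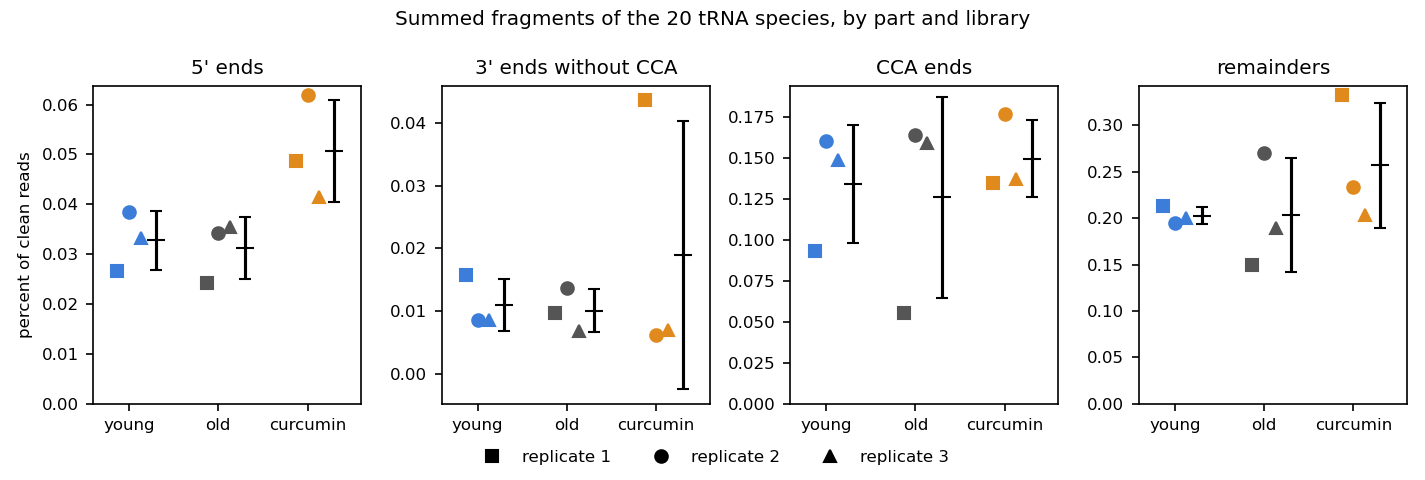
Summed fragments of the 20 species by part, as percent of clean reads, in each library; colours are groups, symbols replicate numbers, and the bar beside each group is mean ± SD (n = 3). The 5′ end panel shows the 3 curcumin libraries above the other 6; the 3′ end panel shows curcumin replicate 1 alone at 0.0435%.

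The other parts overlapped between groups. The 3′ end sums were 0.0158%, 0.00853% and 0.00862% of clean reads in the young group, 0.00974%, 0.0136% and 0.00685% in old, and 0.0435%, 0.00619% and 0.00704% with curcumin, so the curcumin mean rested on replicate 1. The CCA end sums were 0.0930%, 0.160% and 0.148%, then 0.0552%, 0.164% and 0.159%, then 0.135%, 0.177% and 0.137%, with the number 1 library the lowest in each group. The remainder sums were 0.213%, 0.195% and 0.200%, then 0.150%, 0.270% and 0.190%, then 0.333%, 0.234% and 0.203%. Without the libraries numbered 1 the log2 differences of curcumin from old were −0.55, −0.0522 and −0.0523 for these 3 parts, against 0.35, 0.39 and 0.35 with all libraries. Exact permutation tests of these 3 parts with all libraries gave p of 0.2 to 1, adjusted 0.8 to 1. Of 30 comparisons of amino acids, the 29 other than initiator methionine in curcumin against young mice had an exact permutation p of 0.2 or more (adjusted p 0.818 to 1).

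Without the 3 libraries numbered 1, edgeR called members in both comparisons with curcumin-treated mice, on 2 libraries a group. Those 3 libraries were singled out after the data were seen, so the calls and adjusted p-values below are descriptions and no test. From old to curcumin 7 of 77 members were called (9.09%, beside 14.1% of all features), and all 7 fell. They were the CCA ends of tRNA-Arg-TCG (log2 change −1.44, SE 0.31; adjusted p = 0.00381), tRNA-Arg-TCT (−1.41), tRNA-Pro-AGG (−1.79) and tRNA-Pro-TGG (−1.76), the 3′ ends of tRNA-Arg-TCT (−1.66) and tRNA-Arg-CCT (−2.07), and the remainder of tRNA-Ile-AAT (−1.04). The medians of all members and of all features were then −0.54 and −0.05. The 2 proline CCA ends share reads, so they are not independent calls here or against young mice. They also rest on few reads. That of tRNA-Pro-AGG had 62.6 and 33.9 in old replicates 2 and 3 and 19.3 and 12.9 in those with curcumin. From young to curcumin 6 of 77 were called (7.79%, beside 12.9% of all features): the CCA ends of the same 2 arginine and 2 proline species and the remainder of tRNA-Ile-AAT fell, and the 5′ end of tRNA-Arg-CCT rose by 3.18 (SE 1.02; edgeR, adjusted p = 0.0426), on 1 and 1 reads in young against 14 and 14. From young to old 0 of 77 were called (edgeR; 0 of 519 features, 0%; 2 members under an unadjusted p of 0.05).

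These calls depended on the scaling. Relative to clean-read totals 2 members were called from old to curcumin, the CCA ends of tRNA-Arg-TCG (−1.16) and tRNA-Arg-TCT (−1.13), and 1 from young to curcumin, the 5′ end of tRNA-Arg-CCT (beside 6.17% and 5.78% of all features). Fitted among nuclear tRNA fragments alone, 7 members were called from old to curcumin, 4 up and 3 down, and 10 from young to curcumin, 7 up and 3 down (beside 10.8% and 16.1% of the 186 nuclear fragments tested). The fragments that rose there included the tRNA-iMet-CAT remainder, by 0.79 (SE 0.22; edgeR, adjusted p = 0.0104) from old and 1.17 (SE 0.22; adjusted p = 0.000197) from young mice, and the tRNA-Met-CAT 5′ end, by 1.01 (SE 0.24; adjusted p = 0.00286) and 0.95 (SE 0.24; adjusted p = 0.00467). The CCA ends of tRNA-Arg-TCG fell under this scaling too, with log2 changes of −1.08 and −0.80. The 2 comparisons share the curcumin libraries and are not independent. These 2 alternatives, like the choice of the libraries left out, came after the data were seen.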

How the data were processed

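The deposited value of each annotation is an expected count per library, not normalized by the authors: a read that matched several annotations was divided among them. Per the submitters' processing notes, cutadapt 2.5 and the build mm10 were used; the tool that annotated the reads is, like its version, not given in the sources used here, nor is any use of molecular identifiers. Genome-matched and unmatched reads were summed, the ends subtracted from the whole species to give the remainder, and expected counts rounded.

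All 520 features that passed filterByExpr in the 9 libraries were fitted together by the quasi-likelihood method of edgeR 4.0.16 under R 4.3.3 (robust, scaled by TMM, no term but group), and Benjamini-Hochberg adjustment ran over all of them at 0.05. Sums per library were compared as log2 percent of clean reads by exact two-sided permutation tests, adjusted over 12 part and 30 amino acid comparisons. These tests were written for this purpose in Python 3.11.15 with numpy 2.4.6. Alternatives were other scalings and filters, DESeq2 1.42.0, limma-voom (limma 3.58.1), genome-matched reads, 2 groups alone, nuclear tRNA alone, a replicate block, and leaving out each library or the libraries numbered 1. A term for the libraries numbered 1, and nuclear tRNA alone or clean-read totals without them, were added later. The choice of these libraries itself came after the data were seen.

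Named fragments were those called or, where fewer than 5 were, the 5 with the smallest p in a comparison, the 10 most abundant, and all parts of the most abundant species of each amino acid. Members, lists and rules were chosen with earlier results of these data known. The fit was tested on simulated data with the spread of each feature (common BCV 0.468) and no shift by library number. With 200 of 520 features altered between old and curcumin, it found 24.7% at a log2 change of 1, 63.6% at 2 and 97.1% at 3. Of the unaltered features it called 0.938%. For old and young it found 17.9%, 62.0% and 96.8% and called 1.56%. For curcumin and young it found 29.3%, 84.3% and 89.1% and called 1.56%. So many altered features ease the adjustment, so these shares may exceed those for the real data. Gene positions and lengths came from RefSeq. Sequences of the tRNAs were not used here.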

Additional observations from a re-analysis of the deposited data

Results flagged for a closer look

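Reads of precursor tRNAs were found for 2 member species. They are not member fragments and entered the comparisons above only as part of all features. The precursor of tRNA-Ile-TAT had a mean of 455 reads per library, with 578, 469 and 351 in young, 464, 283 and 571 in old, and 398, 646 and 335 in curcumin-treated libraries. The precursor of tRNA-Arg-TCT had a mean of 109.7 reads per library, with 69, 128 and 124 in young, 69, 109 and 223 in old, and 64, 138 and 63 in curcumin-treated libraries. Both lie above the 3 reads that a count of 0 allows in every library. The groups overlapped for both.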

How the results depend on the processing

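No call of a member fragment was made under any alternative except those leaving out the libraries numbered 1, where the counts were 7 for curcumin against old and 6 for curcumin against young mice. With nuclear tRNA alone and without those libraries they were 7 and 10, and with clean-read totals and without them 2 and 1. Leaving out 1 library in turn gave 0 in all 27 fits. With the replicate number as a block 0 members were called in each comparison. Numbers were not taken to pair the libraries in the main tests. Of 9 same-number correlations 8 were over 0.1, with a range of −0.073 to 0.81, and 11 of 18 best matches were with the own number. Libraries of the same number were thus often alike, and the main tests leave this likeness in the spread. The log2 changes followed over the alternatives were only those of the fragments with the smallest p in each comparison. Among them 1 reversed, that of the tRNA-Arg-ACG 5′ end from young to old, −0.69. It was 0.36 without young replicate 2 and between −1.21 and 0.36 over the libraries left out in turn. Fragments outside this list also turned direction without the libraries numbered 1. From old to curcumin, 13 of 17 tested 3′ ends were above zero with all libraries and 1 of 17 without those numbered 1. For the 5′ ends it was 13 of 20 in both fits.

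Leaving out the libraries numbered 1 turned the sign of 19 of 42 sums over parts and amino acids (8 of old against young, 7 of curcumin against old, 4 of curcumin against young). Without the libraries numbered 1 the log2 differences of curcumin from old were −0.0522 for CCA ends, −0.55 for 3′ ends and −0.12 for Trp, each above zero with all libraries, −0.0523 for remainders, −0.38 for Arg, −0.18 for Phe and −0.13 for Thr, those of curcumin from young −0.12 for Phe and 0.11 for Trp, and that of old from young 0.24 for Met. With TMM denominators iMet and Pro in curcumin against young stood at 0.40 and 0.0345 and Pro against old at −0.11. With nuclear tRNA denominators iMet and Pro against young stood at 0.43 and 0.0593, and with genome-matched reads iMet against young at 0.77. The composition differences without tRNA-Gly were −27.6 points for 5′ ends and 1.25 for remainders. The cause was not tested. Levels of CCA ends and of the tRNA-Trp-CCA and tRNA-iMet-CAT remainders depend on counting reads without a genome match. Rare 3′ ends, under 3 CPM in many species, rest on few reads.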
